A study of Homo sapiens with 12 samples.

Results

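TIMP1 KO 2 is a clonal knockout line made from MIA PaCa-2, an established line of human pancreatic carcinoma cells, and its RNA was compared here with that of the unmanipulated parental line, TIMP1 WT. Of the 63086 genes in the deposited table, the 15987 with a mean normalised read count of at least 10 over all 12 libraries of the series were compared, in 3 KO 2 and 3 WT libraries. A normalised read count is the number of reads assigned to a gene, scaled so that the typical gene is equal between libraries. All lines were grown in the same medium with fetal calf serum to the same confluency. In KO 2, CRISPR-Cas9 had been directed at exon 4 of TIMP1 with a pair of guide RNAs. The other lines of the series were a CRISPR Control line, which went through editing and kept only a silent point mutation, and TIMP1 KO 1, a knockout clone edited at the same exon. These lines are given beside KO 2 where a result turns on what is particular to it. KO 2 is 1 clone, so loss of TIMP1 and any other difference between this clone and the parental cells cannot be told apart within this comparison.

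TIMP1 encodes tissue inhibitor of metalloproteinases 1, a secreted protein that blocks matrix metalloproteinases and also acts as a signalling ligand through cell surface receptors such as CD63 and CD74. Several of the genes described here belong to the interferon system. In that system, sensors of viral RNA or DNA switch on type I and type III interferon genes, the secreted interferons bind receptors that activate transcription factors, among them STAT2 and IRF9, and these raise a large set of interferon-stimulated genes whose products restrict viruses and present antigen. The other large group of genes described here serves the cell cycle, in which E2F factors drive the genes of DNA replication and a later wave of factors drives the genes of mitosis.

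The region of TIMP1 that was targeted is shown because the design rests on it. Exon 4 of the transcript TIMP1-201 lies on the plus strand at chrX:47585205-47585331 of GRCh38 and is 127 bases of coding sequence. Its reference sequence is printed in lower case throughout because the positions of the cuts are not given in the sources used here, and the sequence carried by KO 2 was not analysed here.

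TIMP1 exon 4: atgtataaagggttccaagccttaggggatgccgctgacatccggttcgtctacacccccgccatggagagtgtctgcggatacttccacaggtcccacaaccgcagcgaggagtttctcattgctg

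TIMP1 transcripts were lower in KO 2 and were not lost. The WT libraries held normalised counts of 3837, 3290 and 3532 and the KO 2 libraries held 1136, 1192 and 1155. CRISPR Control had a mean of 2690 ± 357 (SD, n = 3) and KO 1 a mean of 1600 ± 32.8 (SD, n = 3). All KO 2 libraries thus lay below all others, and the log2 fold change against WT was -1.61 with a standard error (SE) of 0.09 (limma adjusted p = 2.6e-11). A count of reads over the gene does not show whether the transcript encodes a functional protein, and the annotation places 2 other genes over TIMP1 on the opposite strand.

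The 6 libraries held between 28272364 and 35380602 reads in genes. Scaled to a common level, KO 2 libraries summed to fewer normalised reads than WT libraries (29308100 to 29732000 against 31139700 to 32000400), while more genes had a read in KO 2 (25160 to 25921) than in WT (23372 to 24166). No WT or KO 2 library was a repeat of another, since the chi-square between libraries of the same line was 5.32 per gene or more. The 6 genes fixed as markers of the carcinoma line were abundant in WT and KO 2. The 6 markers of the leukaemia line K562 were at or under 3 reads in every library, and of 8 leukocyte markers only CD14 reached a mean of 10, at 36.2 in WT and 161 in KO 2. The markers DCN, LUM and FAP of fibroblasts had means of 0 in WT and at most 2.31 in KO 2, while PDGFRB, of the same list, rose to a mean of 48.2 in KO 2 from at most 17.0 in any WT library. The collagen members of that list split, with COL1A1 higher in KO 2 (mean of 33836 against 11490) and COL1A2 (0 against 8217) and COL3A1 (3.03 against 146) lower. Of the acinar, endocrine and endothelial markers, PECAM1 had the highest mean in KO 2, at 13.1 against 2.06 in WT. The part of such cells in the results was not tested. Replicates are labelled as biological. The p-values rest on the spread between libraries of the same line, pooled over all lines of the series. They do not measure the spread between clones, since KO 2 is 1 clone.

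KO 2 differed from WT across a large part of the transcriptome. By limma on log2(normalised count + 1), 8791 of 15987 genes (55.0%) were called at an adjusted p under 0.05. Of these, 4330 genes (27.1%) were higher in KO 2 and 4461 (27.9%) were lower. The number of calls was close to balanced, but the sizes were not. At least a 2-fold difference on this scale, a log2 fold change of 1, was reached by 1600 genes that rose (10.0%) and 756 that fell (4.73%). A log2 fold change of 4 was reached by 102 genes that rose and 52 that fell. Of the tested genes, 312 reached the minimum mean only through KO 2, and 210 of these were called higher. The minimum thus adds to the rises in these counts. In 4946 genes (30.9%) the 3 KO 2 libraries lay above the 3 WT libraries and in 5106 (31.9%) they lay below. When library totals rather than size factors were made equal, 5234 genes were called higher and 3500 lower, with a shift of the median gene of 0.10 on the log2 scale, so small differences are relative to the scaling.

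The same fit called 10828 genes (67.7%) between KO 2 and CRISPR Control, 6100 (38.2%) between KO 2 and KO 1, and 5682 (35.5%) between KO 1 and WT. A gene was taken as particular to KO 2 when KO 2 differed in 1 direction from WT, from CRISPR Control and from KO 1. This held for 1524 genes that were higher (9.53%) and 1804 that were lower (11.3%). With equal library totals it held for 2108 higher and 1118 lower genes, so which direction was more frequent depends on the scaling. These comparisons share the KO 2 libraries, and each is given by its own values below.

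The interferon system held most of the largest rises, with 9 of the 10 highest log2 fold changes among abundant protein-coding genes. IFI16, OAS2, RSAD2, XAF1, IFI27, CMPK2, BST2 and FMOD reached the mean of 100 that defined abundance only through KO 2. That ranking is therefore given as a description. Of 72 tested antiviral effectors, which are interferon-stimulated genes whose products limit viruses, 69 (95.8%, against 27.1% of all genes) were higher in KO 2 and 1 was lower. Their median log2 fold change was 3.37, beside -0.01 over all tested genes. For 66 of them KO 2 was also higher than CRISPR Control and KO 1. Of the 72, 13 had a mean under 10 over the 9 libraries of the other lines and were tested only through KO 2, among them RSAD2, XAF1, IFI27 and IFI44, and of the other 59 members 56 were higher. Over all tested genes, 312 were tested only through KO 2 and 210 of them were called higher. The members NT5C3A and APOBEC3B, with log2 fold changes of 0.12 and 0.08, were not called.

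OAS2, an oligoadenylate synthetase that activates RNase L on double-stranded RNA, had counts of 14.7, 15.5 and 15.2 in WT and of 5230, 5342 and 4886 in KO 2. The groups did not overlap, and the difference was 340-fold, with a log2 fold change of 8.32 (SE 0.19, adjusted p = 1.75e-16). In KO 1 the libraries held 125, 194 and 96.3 counts, so KO 1 lay between WT and KO 2.

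MX1, a GTPase that traps viral nucleocapsids, rose from 52.1, 55.5 and 56.2 in WT to 9948, 10475 and 9963 in KO 2, or 186-fold (log2 fold change 7.51, SE 0.16, adjusted p = 7.55e-17). RSAD2, or viperin, an enzyme that makes a chain-terminating nucleotide, rose from 5.66, 0.909 and 1.91 to 747, 718 and 754. CMPK2, a mitochondrial nucleotide kinase encoded beside RSAD2, rose from 11.3, 6.36 and 6.67 to 1190, 1156 and 1219. In each of these genes every KO 2 library was far above every WT library.

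XAF1, a pro-apoptotic zinc finger protein, was at or under 3 reads in every WT library and at 395, 390 and 391 in KO 2, so it was at least 131-fold higher against a floor of 3 reads per library. BST2, or tetherin, which holds budding virus particles at the cell surface, rose from 10.2, 17.3 and 16.2 to 1617, 1660 and 1856. IFI6, a small membrane protein that opposes apoptosis and flavivirus replication, rose from 139, 141 and 112 to 17668, 20185 and 24195, the largest level among the antiviral genes named here. IFI27 (log2 fold change 7.33, SE 0.31) and IFI44 (6.61, SE 0.62) rose in the same way. IFI44L, which was not tested because its mean was under 10, had 0 reads in all WT, CRISPR Control and KO 1 libraries and normalised counts of 11.6, 30.7 and 22.2 in KO 2.

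IFITM2, a membrane protein that blocks virus entry, went the other way. It had counts of 611, 530 and 568 in WT and 113, 110 and 137 in KO 2 (log2 fold change -2.24, SE 0.14, adjusted p = 1.12e-10), and its difference between KO 2 and KO 1 was not called (log2 difference 0.10, adjusted p = 0.6). Its near-identical neighbour IFITM3 rose from between 4848 and 5789 in WT to between 14170 and 16934 in KO 2, and reads that match both genes may have been assigned to either. OAS2, RSAD2, XAF1, MX1, IFI6, CMPK2 and IFI16 overlap at least 1 annotated gene on the opposite strand, and without a stated strand setting their reads cannot be told apart from those of that gene.

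Many promoters of the antiviral list hold a short element. The list was drawn up as interferon-stimulated genes, so its share below describes the list and is no result about KO 2. Interferon-activated factors bind a repeat of GAAA, and the sequence GAAA, then 2 bases of any kind, then GAAA was searched on both strands in RefSeq promoters of GRCh38.p14, from 250 bases before to 50 bases after the first listed start of each gene. It was present in 32 of the 49 tested antiviral effectors with a promoter in the table (65.3%, with 23 members not in it), in 319 of 11486 promoters of all tested genes (2.78%), and in 996 of all 27305 promoters (3.65%). Among genes called at least 2-fold higher it was present in 83 of 1061 (7.82%), and among those called at least 2-fold lower in 13 of 484 (2.69%). The genes called higher include some tested only through KO 2, among them IFI27 and IFI44. The 200 bases before the start are shown for 4 of the named genes that hold the element there, with matches in capitals. BST2 is at chr19:17405631-17405830 and IFI6 at chr1:27672193-27672392, both on the minus strand, and IFI27 at chr14:94110536-94110735 and IFI44 at chr1:78649589-78649788 are on the plus strand. Overlapping matches run together in BST2. RSAD2, XAF1 and CMPK2 had no match in the window searched.

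BST2: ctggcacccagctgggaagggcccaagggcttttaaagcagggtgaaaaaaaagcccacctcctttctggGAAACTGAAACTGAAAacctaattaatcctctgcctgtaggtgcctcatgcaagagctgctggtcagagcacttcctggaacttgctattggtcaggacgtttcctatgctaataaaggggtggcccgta
IFI6: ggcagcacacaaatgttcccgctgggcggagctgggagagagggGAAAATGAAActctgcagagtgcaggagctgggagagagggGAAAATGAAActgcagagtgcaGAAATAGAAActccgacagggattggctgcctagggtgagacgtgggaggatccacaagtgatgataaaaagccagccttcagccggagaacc
IFI27: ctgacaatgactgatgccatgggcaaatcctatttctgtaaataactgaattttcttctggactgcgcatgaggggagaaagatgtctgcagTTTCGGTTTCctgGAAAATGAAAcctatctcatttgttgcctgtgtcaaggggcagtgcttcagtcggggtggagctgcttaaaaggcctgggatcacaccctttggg
IFI44: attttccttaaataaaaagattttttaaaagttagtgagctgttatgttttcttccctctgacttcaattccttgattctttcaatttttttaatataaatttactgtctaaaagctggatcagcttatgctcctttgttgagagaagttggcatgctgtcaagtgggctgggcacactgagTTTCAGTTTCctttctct

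**Figure D1:**
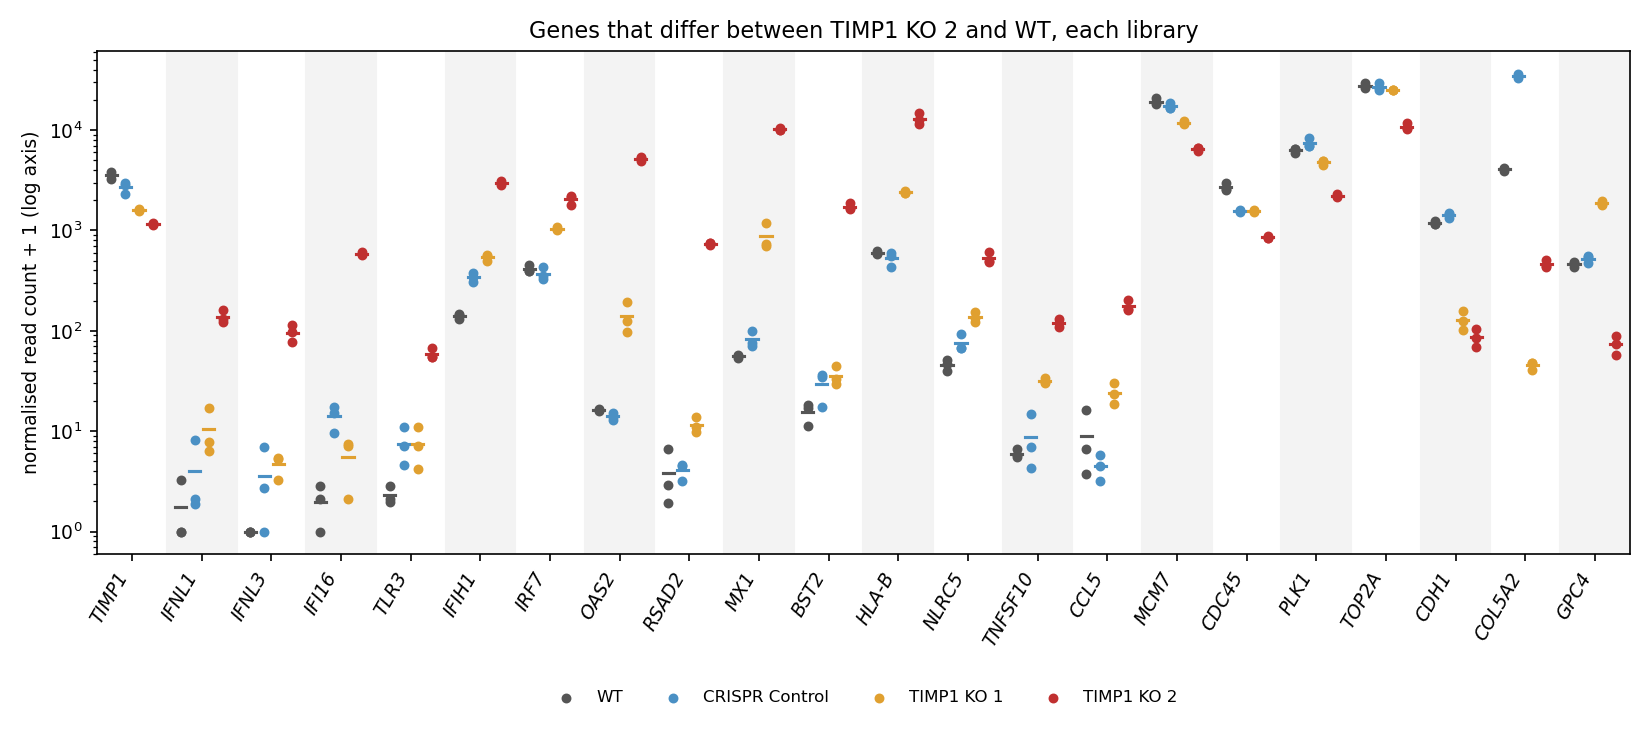
Normalised read count plus 1 on a log axis for 22 genes, with 1 point per library (n = 3 per line) and a bar at the mean of each line. The KO 2 libraries stand above all others from IFNL1 to CCL5 and below all others in TIMP1, MCM7, CDC45, PLK1, TOP2A and GPC4.

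Interferon ligands themselves were among the genes that rose. IFNL1, a type III interferon, had counts of 2.26, 0 and 0 in WT and 123, 160 and 130 in KO 2, at least 46.0-fold higher against the floor. IFNL3 was at 0 in all WT libraries and at 96.1, 112 and 76.7 in KO 2, at least 31.7-fold higher. IFNL2 rose as well, from 0, 2.73 and 0 to 83.7, 102 and 78.7, although IFNL2 and IFNL3 are near-identical copies between which reads may be divided. KO 2 was above CRISPR Control and KO 1 in all 3 genes. All 3 reached the minimum mean only through KO 2, so their values are given as a description. The type I interferon gene IFNB1 fell under the minimum mean, with 0 in WT and 12.4, 17.5 and 6.05 in KO 2.

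Of 25 tested genes of interferon signalling, 13 were higher (52.0%, against 27.1% of all genes) and 4 were lower (16.0%, against 27.9%). The 13 included IFNL1, IFNL2 and IFNL3, which were tested only through KO 2, and of the other 22 genes 10 were higher. The transcription factor gene STAT2 rose by a log2 fold change of 1.29. USP18, which removes ISG15 from proteins and dampens the type I receptor, rose 14.4-fold. The receptor gene IFNLR1 rose by a log2 fold change of 0.70, whereas IFNAR1 (0.11) and IFNAR2 (-0.29) were not called. JAK1, a kinase bound to these receptors, and PIAS1, a SUMO ligase, were lower by log2 fold changes of -0.29 and -0.38, and JAK1 was not called after quantile normalization (-0.15).

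Sensors of foreign nucleic acid followed, with 12 of 17 higher (70.6%, against 27.1% of all genes) and 4 lower (23.5%, against 27.9%). IFI16, a nuclear and cytosolic DNA sensor, had the largest log2 fold change among the abundant genes that rose. It was at 1.13, 1.82 and 0 in WT and at 611, 580 and 571 in KO 2, at least 196-fold higher. IFIH1, or MDA5, a sensor of long double-stranded RNA, rose from 141, 147 and 131 to 3142, 2974 and 2807, or 21.2-fold. TLR3, which reads double-stranded RNA in endosomes, rose from at most 1.82 in WT to 53.8, 54.4 and 66.6 in KO 2. IFI16 and TLR3 were also tested only through their level in KO 2.

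DHX58 (6.11-fold), RIGI (3.60-fold, listed in the table as DDX58) and STING1 (3.78-fold, listed as TMEM173) rose by smaller factors. The DNA sensor gene CGAS was lower in KO 2 (log2 fold change -0.49, adjusted p = 0.000464), as were RNASEH2B (-0.90), a subunit of the enzyme that cuts RNA paired with DNA, and DDX41 (-0.50), a helicase. Cytosolic sensors therefore did not all move in 1 direction.

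Of 10 interferon regulatory factors and partners, 6 were higher (60%, against 27.1% of all genes) and 1 lower (10%, against 27.9%). IRF7, the factor that amplifies interferon transcription, rose from 455, 397 and 397 to 1800, 2166 and 2183 (log2 fold change 2.29, SE 0.11, adjusted p = 2.37e-12). IRF9, the DNA-binding partner of STAT2, rose 4.87-fold and IRF1 2.76-fold. IRF3, which acts after activation by kinases, had a log2 fold change of -0.08 and was not called, and the repressor gene IRF2BP1 was lower (-0.44).

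Antigen presentation by MHC class I rose with them. Of 21 tested genes, 17 were higher (81.0%, against 27.1% of all genes) and 3 were lower (14.3%, against 27.9%). KO 2 was also higher than both other lines for 15. HLA-B, a class I heavy chain, rose from 627, 592 and 576 in WT to 11612, 12629 and 14722 in KO 2, or 21.7-fold (log2 fold change 4.43, SE 0.11, adjusted p = 2.33e-16). NLRC5, the transactivator of class I genes, rose from between 39.1 and 50 in WT to 495, 612 and 487 in KO 2. The light chain B2M (2.96-fold), the peptide transporter subunit TAP1 (2.39-fold) and the immunoproteasome subunit PSMB9 (3.54-fold) rose as well. The 3 genes that fell, CALR, CANX and PDIA3, encode general chaperones of the endoplasmic reticulum. CANX was not called with equal library totals, quantile normalization or without WT replicate 2, nor PDIA3 with quantile normalization. HLA heavy chains are similar in sequence, so reads may be divided between them.

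Of 14 class II genes only 3 were abundant enough to test. CD74, the invariant chain of class II and a receptor of TIMP-1, had counts of 5.66, 5.45 and 4.76 in WT and 109, 120 and 99.9 in KO 2 (log2 fold change 4.14, SE 0.35, adjusted p = 1.06e-08). CRISPR Control, at 20.7, 23.7 and 33.0, was also above WT (log2 difference 2.07, limma adjusted p = 6.89e-05). KO 1 was not called against WT (log2 difference 0.30), and KO 2 was above both of these lines. CTSS, a protease that trims the invariant chain, rose from a mean of 24.5 to 350. The class II regulator gene CIITA was not called, with a mean of 8.66 in WT and 9.92 in KO 2, and HLA-DRA had no reads in KO 2. Among the other class II genes under the minimum mean, HLA-DPA1 was at 18.2, 28.1 and 17.2 in KO 2 and at most 1.91 in WT. HLA-DQB1 was at 7.46, 3.51 and 2.02 in KO 2 and 0 in WT, and HLA-DMA had means of 12.9 and 6.89. CD63, the tetraspanin receptor of TIMP-1, was higher than in WT (log2 fold change 0.59, SE 0.09), while CRISPR Control lay above KO 2.

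Genes for ligands of natural killer (NK) cells, for death ligands and receptors, and for checkpoints were mixed. Of 23, 13 were higher (56.5%, against 27.1% of all genes) and 4 lower (17.4%, against 27.9%). TNFSF10, the death ligand TRAIL, rose from 5.66, 4.55 and 4.76 to 108, 118 and 131 (log2 fold change 4.33, SE 0.36, adjusted p = 8.75e-09). ULBP1, a ligand of the activating receptor NKG2D, rose from 93.9, 64.5 and 84.8 to 393, 403 and 305, and KO 2 was also higher than both other lines. ULBP2 (1.71) and ULBP3 (0.95) rose on the log2 scale, and the NKG2D ligands MICA (-0.07) and MICB (-0.11) were not called. NECTIN3, an adhesion protein of the nectin family, fell from 162, 199 and 150 to 63.0, 44.7 and 47.4, and the checkpoint gene CD276 fell by a log2 fold change of -0.69.

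Among 23 chemokine and cytokine genes, 15 were higher (65.2%, against 27.1% of all genes) and 5 lower (21.7%, against 27.9%). CCL5, which attracts T and NK cells, had counts of 5.66, 2.73 and 15.2 in WT and 200, 164 and 158 in KO 2 (log2 fold change 4.56, SE 0.42, adjusted p = 3.77e-08). CCL26, an eosinophil chemokine, rose from at most 5.45 to 116, 130 and 122, and its difference between KO 2 and KO 1 was not called (log2 difference 1.38, adjusted p = 0.082). The neutrophil chemokine CXCL5 fell from 187, 369 and 289 to 2.49, 3.51 and 0 (log2 fold change -6.76, SE 0.62), and it was also low in CRISPR Control and KO 1. CXCL1 and CXCL6 fell and CXCL8, of the same family, rose (log2 fold change 1.40), so neutrophil chemokines split. The interferon-induced chemokine CXCL10 was under the minimum mean, with 0 in WT and 8.28, 7.01 and 6.05 in KO 2.

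NF-kB subunits and the genes that NF-kB induces against itself were higher in 14 of 22 (63.6%, against 27.1% of all genes). They were lower in 2 (9.09%, against 27.9%). TRAF1, an adaptor of tumour necrosis factor receptors, rose from 172, 175 and 174 to 630, 643 and 634 (log2 fold change 1.86, SE 0.12). TNFAIP3, or A20, a deubiquitinase that stops NF-kB signalling, rose 2.24-fold. The subunit genes RELA (0.01) and REL (-0.10) were not called, and TNFAIP2 fell (-0.84).

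**Figure D2:**
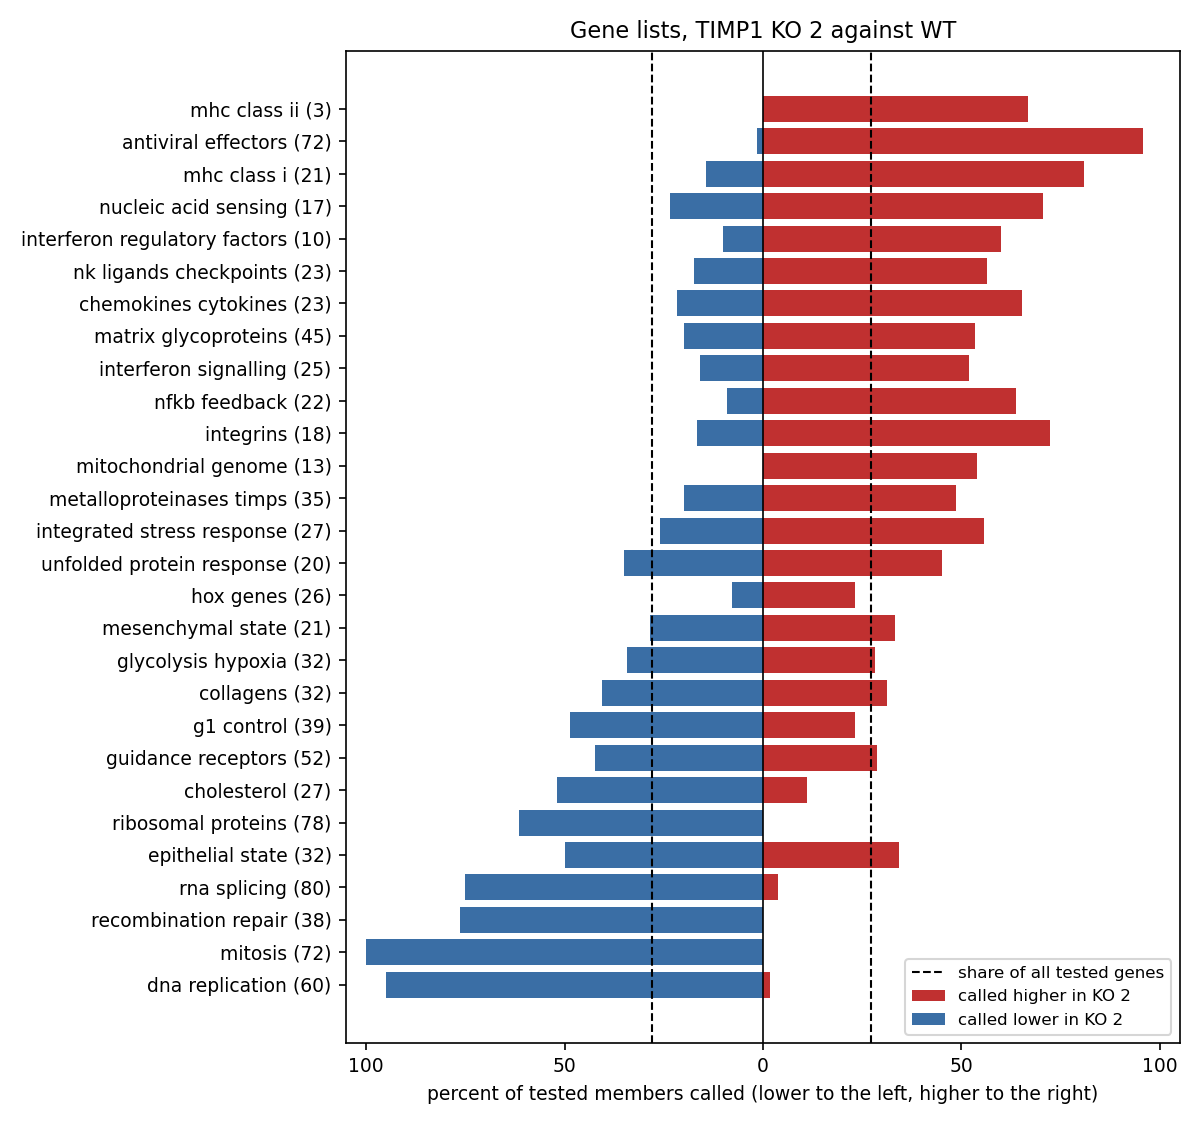
Percent of the tested members of 28 gene lists that were called higher (red, to the right) or lower (blue, to the left) in KO 2 against WT, with the number tested in brackets. Dashed lines mark the share of all 15987 tested genes, 27.1% higher and 27.9% lower. Antiviral effectors reach 95.8% to the right and mitosis 100% to the left.

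The genes of DNA replication and mitosis fell together in KO 2, each by a small factor. Of 60 replication genes, 57 were lower (95%, against 27.9% of all genes) and 1 was higher, with a median log2 fold change of -1.0. All 72 tested mitosis genes were lower (100%), with a median of -0.99 and a range from -1.70 to -0.26. For 50 replication genes and 67 mitosis genes, KO 2 was also lower than CRISPR Control and KO 1. KO 1 was itself lower than WT for 53 of the replication genes and 40 of the mitosis genes.

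CDC45 and GINS2, parts of the replicative helicase, had the largest falls among replication genes. CDC45 went from 2975, 2611 and 2517 to 840, 843 and 871 (log2 fold change -1.66, SE 0.07, adjusted p = 1.65e-12). GINS2 went from 1388, 1193 and 1194 to 418, 362 and 424. MCM7 and MCM3, of the ring of MCM proteins that unwinds DNA, were lower as well, MCM7 from 20768, 18058 and 18907 to 6210, 6617 and 6581. ORC4, a subunit of the origin recognition complex, was 0.39 higher on the log2 scale, and RFC1 (-0.14) and TIPIN (-0.17) were not called.

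Among mitosis genes the kinase gene AURKB fell most, from 3458, 2812 and 2927 to 886, 947 and 996 (log2 fold change -1.70, SE 0.09, adjusted p = 9.67e-12). PLK1, the kinase that drives entry into and progress through mitosis, fell from 6490, 5969 and 6452 to 2153, 2288 and 2179, and CRISPR Control lay above WT at 7014, 6982 and 8401. The condensin subunit NCAPH fell 2.58-fold. TOP2A, the topoisomerase that separates sister chromosomes, fell from 26165, 29413 and 27714 to 11634, 10247 and 10488, whereas KO 1 held between 24834 and 25055. For all of these genes the KO 2 libraries lay below the other 9 libraries.

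The promoters of these lists were searched as above, and the shares of list members again describe the lists rather than KO 2. The E2F-type sequences TTTCCCGC or TTTGGCGC were present in 20 of 52 replication genes with a promoter in the table (38.5%) and in 3.62% of the promoters of all tested genes (2.31% of all promoters). The shorter sequences TTTGAA or TTTAAA, a form of the cell cycle homology region, were present in 45 of 60 mitosis genes (75.0%), in 15.3% of all tested genes and in 24.3% of all promoters. Among genes called at least 2-fold lower, 7.64% held an E2F-type sequence and 24.2% the shorter one, and among those called at least 2-fold higher 1.89% and 19.1% did. The 200 bases before the start of MCM7 (chr7:100101398-100101597, minus strand), GINS2 (chr16:85688955-85689154, minus strand), PLK1 (chr16:23678689-23678888, plus strand) and TOP2A (chr17:40417897-40418096, minus strand) are shown as named members that hold a match, which is in capitals on whichever strand it was found.

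MCM7: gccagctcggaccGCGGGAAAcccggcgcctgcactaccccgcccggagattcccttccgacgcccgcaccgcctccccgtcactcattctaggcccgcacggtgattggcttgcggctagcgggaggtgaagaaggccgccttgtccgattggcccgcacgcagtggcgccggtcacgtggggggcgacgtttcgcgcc
GINS2: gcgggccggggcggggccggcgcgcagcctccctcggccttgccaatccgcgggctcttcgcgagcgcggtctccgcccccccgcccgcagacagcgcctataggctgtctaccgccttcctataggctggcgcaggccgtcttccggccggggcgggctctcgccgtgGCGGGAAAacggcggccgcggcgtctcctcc
PLK1: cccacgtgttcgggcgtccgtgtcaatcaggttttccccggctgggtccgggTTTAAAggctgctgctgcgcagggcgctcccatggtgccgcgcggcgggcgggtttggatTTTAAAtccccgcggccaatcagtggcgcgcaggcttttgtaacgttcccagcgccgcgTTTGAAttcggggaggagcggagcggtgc
TOP2A: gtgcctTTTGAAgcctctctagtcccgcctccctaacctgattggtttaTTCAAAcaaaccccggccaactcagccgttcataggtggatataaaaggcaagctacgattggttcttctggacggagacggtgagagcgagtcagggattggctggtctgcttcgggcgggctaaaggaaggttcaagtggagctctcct

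Genes that control entry into S phase were lower in 19 of 39 (48.7%, against 27.9% of all genes). They were higher in 9 (23.1%, below the 27.1% of all genes). The E2F factor genes E2F1 (log2 fold change -1.40), E2F2 (-1.53) and E2F8 (-1.53) fell, E2F2 from 1122, 1033 and 1045 to 363, 365 and 378. The CDK inhibitor gene CDKN1A, or p21, rose from 1183, 1160 and 1078 to 3103, 3445 and 3300 (log2 fold change 1.52, SE 0.08), and its difference between KO 2 and KO 1 was not called (log2 difference -0.06, adjusted p = 0.57). GADD45A, a stress sensor that slows the cycle, rose from 381, 316 and 286 to 1695, 1728 and 2069, above both other lines. CCND1, CDK6 and RB1 were not called. CCND2, a D-type cyclin, was low in WT (5.45 to 9.53) and higher in KO 2 (18.4 to 42.2), with CRISPR Control above both.

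Homologous recombination and Fanconi anaemia genes fell in 29 of 38 (76.3%, against 27.9% of all genes) and rose in none. FANCD2, the protein marked by ubiquitin at stalled forks, fell from 2178, 1985 and 2095 to 808, 721 and 799 (log2 fold change -1.43, SE 0.09), and its partner FANCI fell by a log2 fold change of -1.36. The checkpoint kinase genes ATM (0.01) and ATR (-0.11) were not called.

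Genes of RNA splicing were lower in 60 of 80 (75.0%, against 27.9% of all genes) and higher in 3 (3.75%, against 27.1%). Their median log2 fold change was -0.43. The members with the largest falls, SRSF12 and ESRP1, were expressed at low levels. SRSF12 fell from 29.4, 37.3 and 30.5 to 4.97, 1.75 and 5.04, and ESRP1, an epithelial splicing regulator, from 22.6, 24.5 and 12.4 to 12.4, 6.14 and 1.01, with the groups touching and no call without WT replicate 1 or 2 or KO 2 replicate 3. MBNL1 and SRSF5 rose by 0.41 and 0.39 on the log2 scale.

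Genes of cytosolic ribosomal proteins were lower in 48 of 78 (61.5%, against 27.9% of all genes) and higher in none, by a median of -0.27. Such small differences depend on the scaling. With equal library totals 30 members were called lower, 27 after quantile normalization, and 30 without WT replicate 1. RPL8 fell by a log2 fold change of -0.75. The genes with the largest falls in normalised count were ACTB (212898 to 225586 in WT, 144652 to 150924 in KO 2), ACTG1, HSP90AB1, KRT8 and FBL, which encode actins, a chaperone, a keratin and a nucleolar methyltransferase. After quantile normalization ACTB and ACTG1 had the same value in both lines and KRT8 was not called.

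The 5 largest rises in normalised count were those of KRT19, APP, CD44, MT-CO1 and CLU. KRT19, a ductal keratin, rose from 16832, 15284 and 15006 to 47228, 50841 and 59423 (log2 fold change 1.74, SE 0.11, adjusted p = 1.15e-10). CD44, the hyaluronan receptor, rose from 33038, 33491 and 34551 to 68632, 64913 and 58337. Of the 13 proteins encoded by mitochondrial DNA, 7 were higher (53.8%, against 27.1% of all genes) and none lower. MT-ND6, which is encoded on the light strand, rose most, from 2730, 2902 and 2729 to 7088, 7156 and 5839, and MT-ND5, on the other strand beside it, rose by a log2 fold change of 1.02.

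Stress and metabolic genes were less uniform. Of 27 targets of ATF4 in the integrated stress response, 15 were higher against WT (55.6%, against 27.1% of all genes). Another 7 were lower (25.9%, near the 27.9% of all genes). Yet against CRISPR Control 5 were higher and 15 lower. ATF3, a stress-induced repressor, rose from 80.4, 67.3 and 59.1 to 1458, 1538 and 1446 (log2 fold change 4.42, SE 0.13, adjusted p = 7.48e-15), above both other lines. NUPR1, a stress-induced chromatin protein, rose against WT, and its difference from CRISPR Control was not called (log2 difference 0.15, adjusted p = 0.58). SLC7A5, a transporter of large amino acids, fell from between 14379 and 15634 to between 4954 and 5438. PHGDH, the first enzyme of serine synthesis, fell 2.05-fold, and its difference from CRISPR Control was not called (log2 difference -0.17).

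Genes of the unfolded protein response rose in 9 of 20 (45%, against 27.1% of all genes) and fell in 7 (35%, against 27.9%). HERPUD1 (0.92) and MANF (-0.73) were at the ends. The difference of HERPUD1 between KO 2 and CRISPR Control was not called (log2 difference -0.03). Cholesterol synthesis genes fell in 14 of 27 (51.9%, against 27.9% of all genes) and rose in 3 (11.1%, against 27.1%). Their median was -0.23, and INSIG1, which retains the sterol sensor, fell by a log2 fold change of -0.72. Of 32 genes of glycolysis and the hypoxia response, 9 rose (28.1%) and 11 fell (34.4%), near the shares of all genes (27.1% and 27.9%), and rises outnumbered falls with equal library totals, with quantile normalization, with no minimum mean and without WT replicate 1. ANGPTL4, an inhibitor of lipoprotein lipase, rose from 1070, 903 and 1001 to 3538, 4021 and 4595, while the glucose transporter gene SLC2A3 fell from 57.7, 74.5 and 73.3 to 14.9, 30.7 and 17.2.

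Matrix genes included wide changes in single genes. Of 32 collagen chains, 10 were higher (31.2%, against 27.1% of all genes) and 13 lower (40.6%, against 27.9%). COL1A2, a chain of type I collagen, had counts of 8506, 8301 and 7845 in WT and 0 in all KO 2 libraries, at least 3028-fold lower. KO 1 was also at 0 and CRISPR Control at 5.49 to 10.7. COL1A1, the partner chain, rose from 11882, 11390 and 11199 to 28872, 32819 and 39818 (log2 fold change 1.55, SE 0.11), so the chains of type I collagen moved apart.

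COL5A2 fell from 3870, 4165 and 4108 to 427, 443 and 501, with CRISPR Control far above at 33247 or more and KO 1 below at 46.8 or less. The basement membrane chains COL4A1 and COL4A2 fell, COL4A1 from 77.0, 89.1 and 79.1 to under the floor. COL13A1, a transmembrane collagen, rose from 31.7, 19.1 and 44.8 to 945, 964 and 965 (log2 fold change 4.95, SE 0.32, adjusted p = 3.06e-10), and KO 2 was higher than CRISPR Control and KO 1 for COL13A1 and COL22A1 and for no other collagen tested.

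Among 45 other matrix genes, 24 were higher (53.3%, against 27.1% of all genes) and 9 lower (20%, against 27.9%). EFEMP1, a fibulin, rose from 54.3, 51.8 and 51.4 to 953, 866 and 803, LOX, a collagen crosslinker, rose 6.16-fold, and the glycoprotein genes BGN and TNC fell 17.1-fold and 14.8-fold. In BGN and TNC, CRISPR Control lay above WT. The difference of LOX between KO 2 and CRISPR Control was not called (log2 difference 0.47). FMOD, a collagen-binding proteoglycan, was among the 10 largest rises of all abundant genes. It rose from 2.26, 3.64 and 2.86 to 408, 444 and 410 (log2 fold change 6.76, SE 0.30). It reached the mean of 100 that defined abundance only through KO 2.

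The list of metalloproteinases, related genes and inhibitors was higher in 17 of 35 tested members (48.6%, against 27.1% of all genes). It was lower in 7 (20.0%, against 27.9%). The 35 included the inhibitors TIMP2 and RECK and the protease-like ADAMTSL1. ADAMTS6 and MMP19 were tested only through KO 2 and were both higher, and of the other 33 members 15 were higher. ADAMTS1, a versican-cleaving protease, rose from 5.66, 8.18 and 8.57 to 159, 186 and 147 (log2 fold change 4.30, SE 0.28, adjusted p = 2.74e-10), above both other lines. ADAM8 rose 9.86-fold. MMP1, the interstitial collagenase, rose from 28.3, 25.5 and 22.9 to 262, 269 and 229, but its difference from CRISPR Control was not called (log2 difference -0.61, adjusted p = 0.063). MMP14, the membrane collagenase, had a log2 fold change of 0.00 and was not called. Of the other inhibitors, TIMP2 was lower by -0.21, RECK was higher by 0.78, and TIMP3 was under the minimum mean, at 5.66, 0.909 and 2.86 in WT and 0, 12.3 and 5.04 in KO 2.

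Integrin genes were higher in 13 of 18 (72.2%, against 27.1% of all genes) and lower in 3 (16.7%, against 27.9%). ITGA2, a collagen receptor subunit, rose from 2129, 2550 and 2441 to 11572, 10480 and 9563 (log2 fold change 2.15, SE 0.11, adjusted p = 6.07e-12). ITGA11, also of a collagen receptor, rose from 15.8, 3.64 and 7.62 to 81.2, 81.5 and 79.7. ITGB4, the laminin-binding subunit of hemidesmosomes, fell from 1303, 1195 and 1345 to 425, 441 and 456, below both other lines.

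Epithelial genes fell in 16 of 32 (50%, against 27.9% of all genes) and rose in 11 (34.4%, against 27.1%). CDH1, or E-cadherin, fell from 1151, 1163 and 1254 to 103, 83.3 and 68.6, a fall seen in every library (log2 fold change -3.81, SE 0.15, adjusted p = 2.14e-13), and KO 1 was low too, at 102 to 158. CDH3 fell 12.6-fold, and the desmosome gene PKP2 fell 12.1-fold. In the same libraries the epithelial genes ST14, CLDN3 and KRT19 rose by log2 fold changes of 2.00, 1.86 and 1.74. For ST14 the difference between KO 2 and CRISPR Control was not called (log2 difference 0.31).

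Mesenchymal genes rose in 7 of 21 (33.3%) and fell in 6 (28.6%), near the shares of all genes. The leading direction turned without KO 2 replicate 2. PRRX1 was tested only through KO 2, and of the other 20 members 6 were higher. VIM (0.04) and ZEB1 (0.03) were not called. SNAI2, a repressor of E-cadherin, fell from at least 88.3 in WT to 0, 6.14 and 0 in KO 2, and S100A4 fell 6.29-fold. PDGFRA, a growth factor receptor of mesenchymal cells, rose from 26.0, 22.7 and 21.9 to 272, 274 and 305 (log2 fold change 3.54, SE 0.51, adjusted p = 1.12e-05), while it was lower than WT in KO 1.

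Receptors and ligands of cell guidance rose in 15 of 52 (28.8%, near the 27.1% of all genes) and fell in 22 (42.3%, against 27.9%). EPHB1, an Eph receptor, rose from 24.9, 12.7 and 11.4 to 625, 657 and 617 (log2 fold change 5.27, SE 0.42), and PLXNA2, a semaphorin receptor, from 187, 132 and 154 to 1229, 1358 and 1418. EPHA4 and EPHA7 fell by log2 fold changes of -3.37 and -2.62. Of 26 HOX genes, 6 rose (23.1%) and 2 fell (7.69%), both below the shares of all genes, with HOXB13 (0.83) and HOXA3 (-0.77) at the ends. The count of rises was 10 with equal library totals and 3 without KO 2 replicate 2.

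Most of the abundant genes with the largest falls were near 0 in KO 2 and KO 1 alike. Besides COL1A2, the list of 10 held RGS4, ALDH1A1, INA, KANK4, AMIGO2, LYPD6B, NTS, PPARG and COL26A1. RGS4, a regulator of G protein signalling, had counts of 1097, 1197 and 1142 in WT and 0, 0.877 and 0 in KO 2, at least 422-fold lower. ALDH1A1, a retinal dehydrogenase, was at 761, 797 and 762 in WT and at most 1.66 in KO 2. PPARG, a nuclear receptor of fat cells, fell from 311, 318 and 337 to 7.46, 6.14 and 5.04. COL1A2, RGS4 and ALDH1A1 were low in CRISPR Control as well (at most 54.6), whereas INA, AMIGO2, LYPD6B, NTS and PPARG were higher in CRISPR Control than in WT. For KANK4 and COL26A1 the difference of CRISPR Control from WT was not called (adjusted p = 0.21 and 0.14).

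The abundant genes that set KO 2 apart from all 3 other lines by the widest margin were interferon-stimulated on the upper side, namely IFI44, RSAD2, IFI27, BST2, IFI16 and OAS2. On the lower side they were GPC4, DENND2A, MAFA, NINJ2, HDGFL3 and SORL1. The genes of the upper side reached the mean of 100 that defined abundance only through KO 2, so their ranking is given as a description. Their means in the other lines were at most 34.9, except for OAS2 in KO 1 (138). GPC4, a cell surface heparan sulphate proteoglycan, had counts of 470, 427 and 479 in WT and 72.1, 57.0 and 87.8 in KO 2 (log2 fold change -2.67, SE 0.13, adjusted p = 3.62e-12), while KO 1 stood at 1972, 1788 and 1820. DENND2A, which activates Rab9 GTPases, fell from 281, 302 and 316 to 43.1, 49.1 and 58.5. SORL1, a sorting receptor, fell from 749, 699 and 756 to 245, 196 and 199. No KO 2 library overlapped a library of another line in any of these 3 genes.

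Changed genes were also described by position, in 3079 windows of 25 consecutive tested genes. The medians of 90% of windows lay between -0.32 and 0.33 on the log2 scale. The highest median, 2.01, was on chromosome 6 from TRIM38 to ABT1 (chr6:25962802-26600739, GRCh38), a cluster of histone and butyrophilin genes. In this window 17 of 25 genes were higher and 2 lower, and the median was -0.17 for CRISPR Control against WT and 0.44 for KO 1 against WT. Some of its genes, among them H2BC6, H2BC7 and AL031777.3, reached the minimum mean only through KO 2. Its counts and rank are therefore given as a description.

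Of 11 histone genes in this window 10 rose, while genes of DNA replication fell. H2BC6 and H2BC7 were tested only through KO 2, and of these H2BC6 was called higher. H2AC6 rose from 259, 358 and 311 to 2249, 2267 and 2134 (log2 fold change 2.85, SE 0.11, adjusted p = 1.32e-13). H1-2, a linker histone, rose from 194, 243 and 219 to 796, 929 and 916, and H2BC5 rose 5.03-fold. The variant histone gene H2AZ1 on chromosome 4, which like other polyadenylated histone genes has introns, fell by a log2 fold change of -0.63. Histone genes of the cluster are similar in sequence, so reads may be divided between copies.

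The butyrophilin genes of the window encode surface proteins that gamma delta T cells read. BTN3A3 rose from 11.3, 10.0 and 14.3 to 169, 153 and 161 (log2 fold change 3.67, SE 0.22), and BTN3A1 and BTN3A2 rose by 2.20 and 2.19. BTN2A1 (0.13) was not called. KO 2 was above CRISPR Control and KO 1 for BTN3A3.

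**Figure D3:**
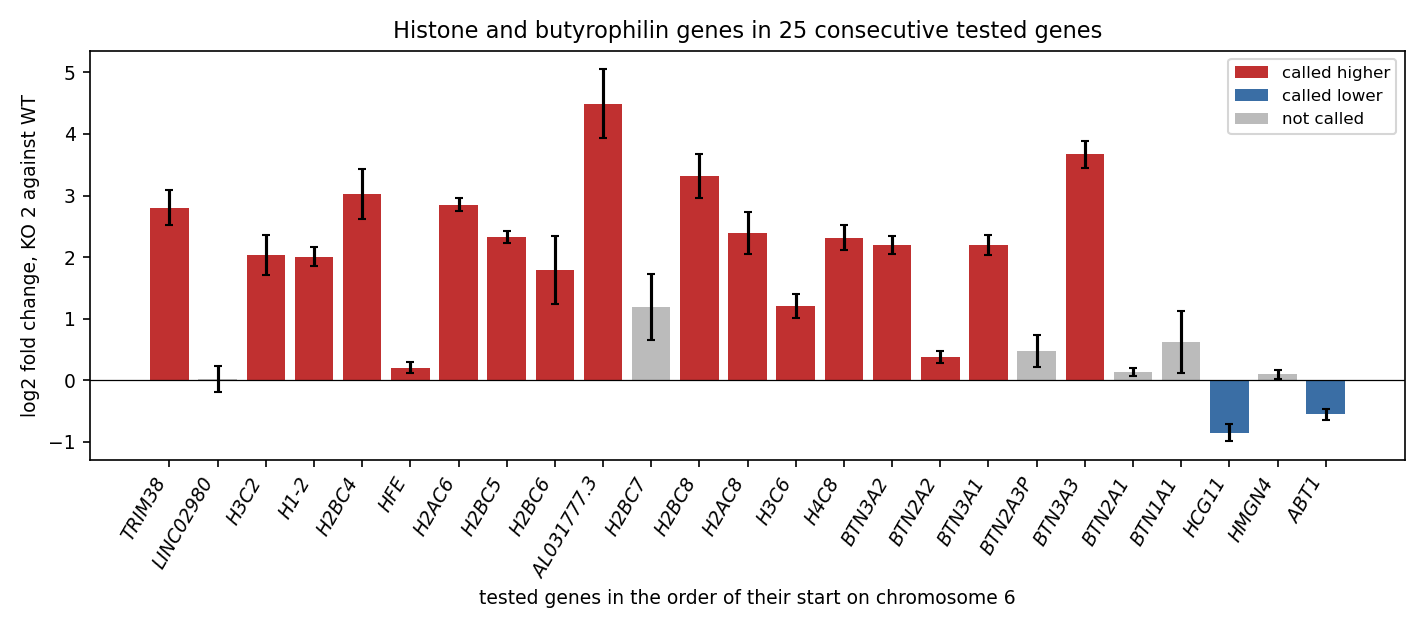
Log2 fold change of KO 2 against WT for the 25 consecutive tested genes of the window with the highest median, in order along chromosome 6, with error bars of 1 SE. Histone and BTN3A genes reach 2.00 or more in most cases, while HCG11 and ABT1 at the far end are lower.

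The next windows by median were on chromosome 9 (ALDH1B1 to ZNG1DP, 1.00, 19 of 25 higher), chromosome 5 (0.90, with 12 clustered protocadherin genes higher) and chromosome 1 (DNAJB4 to AC092807.3, 0.85, 15 higher). In this order, the median difference of KO 2 was 1.13, 0.53 and 1.60 from CRISPR Control and 0.66, 0.16 and 0.11 from KO 1. The windows on chromosomes 5 and 1 were thus close to KO 1 and not particular to KO 2. On chromosome 9 the cell adhesion gene CNTNAP3 rose from 177, 176 and 211 to 940, 982 and 815, and its copies CNTNAP3B and CNTNAP3C may share its reads. On chromosome 1, LPAR3, a receptor of lysophosphatidic acid, rose 5.68-fold, and its difference from KO 1 was not called (adjusted p = 0.53).

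The lowest median, -0.62, was on chromosome 1 from IGSF3 to H3P4 (chr1:116574399-121118610), with 18 of 25 genes lower. In this window CRISPR Control also lay below the parental line (median -0.40), while KO 1 was close to it (0.01). The median difference of KO 2 was -0.02 from CRISPR Control and -0.55 from KO 1, so the low median was not particular to KO 2. The window held TTF2, a transcription termination factor that fell from 1934, 1865 and 1949 to 687, 731 and 693, and PHGDH. The first window of chromosome 12 (median -0.50, 18 of 25 lower) held FOXM1, the transcription factor of mitotic genes, which fell from 5817, 5334 and 6023 to 2275, 2595 and 2384. Over whole chromosomes the medians ran from -0.19 on chromosome 15, where 40.7% of genes were lower, to 0.14 on chromosome 14, where 36.0% were higher.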

How the data were processed

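RNA of 4 MIA PaCa-2 lines was sequenced in 3 libraries each. The authors trimmed read pairs with Cutadapt, mapped them to GRCh38 with STAR, summarised them over genes with featureCounts and scaled each library by its DESeq2 size factor. The deposited values are thus a signal of scaled read counts. Strand setting and annotation release are not given in the sources used here. Whole reads were recovered from the step of each library for 100% of values (tolerance 0.01 reads). Depth ran from 26908701 to 36093563 reads. The floor of 3 reads covers counting error only, since PCR copies are not independent molecules. The 4 columns of line means were not used.

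The test was limma (3.58.1, R 4.3.3) on log2(normalised count + 1) with 4 line means from all 12 libraries, eBayes with trend, two-sided, adjusted by Benjamini-Hochberg over 15987 genes. This scale understates the change of low genes. Folds are ratios of mean counts. edgeR (4.0.16), DESeq2 (1.42.0), other scalings, pseudocounts and minimums, a replicate block and leaving out each WT or KO 2 library were alternatives. The fit was tested on simulated data. Members and the 28 gene lists were chosen with earlier results of these data known, and lists are described by counts and medians without a set test. Named genes were TIMP1, CD63, CD74 and TIMP3, the 10 highest and 10 lowest log2 fold changes among called protein-coding genes with a mean of at least 100 and groups that do not overlap, the 5 largest rises and falls in count, the 6 genes on each side (mean of at least 100) with the largest smallest difference from the 3 other lines, the 2 largest rises and falls of each list, and the 4 largest changes among antiviral, replication and mitosis genes. Other genes were named after their values were seen, and some results are not reported here. Coordinates and symbols are of GENCODE v44, matched by gene identifier for 99.1% of genes, and promoters are from RefSeq (GRCh38.p14). Chromosome arms were replaced by whole chromosomes.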

Additional observations from a re-analysis of the deposited data

Results flagged for a closer look

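GPC4 was lower than WT in KO 2 and higher than WT in KO 1, with a KO 2 to KO 1 log2 difference of -4.69 (limma adjusted p = 6.9e-15). PDGFRA, PLXNA2 and CCND2 had the opposite pattern, higher than WT in KO 2 and lower in KO 1. The log2 difference of KO 2 from KO 1 was 5.00 for PDGFRA, 4.46 for PLXNA2 and 3.67 for CCND2, each called by limma. These 4 were the genes named by the rule whose changes from WT in the clones were called in opposite directions. MMP1, CXCL8 and ULBP2, named after their values were seen, had the pattern too, and both changes share the WT libraries.

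Among the 47099 genes under the minimum mean, 73 had more than 3 reads in each KO 2 library and 0 in each WT library, and 37 had the reverse. The same count was 36 for CRISPR Control and 4 for KO 1, with 41 and 59 for the reverse. The most abundant of the 73 was RNASE1, a secreted ribonuclease, at 29.0, 28.1 and 30.3 in KO 2. These genes were not tested.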

How the results depend on the processing

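With the fit fixed as above, the number of genes called was between 7737 and 8099 when any 1 WT or KO 2 library was left out (3782 to 3980 higher, 3955 to 4151 lower), and genes of at least 2-fold change numbered 2289 to 2377. Genes in which KO 2 stood apart numbered 2704 to 3224 in all (1245 to 1485 higher, 1459 to 1739 lower), list members called in the leading direction 577 to 598, and the TIMP1 log2 fold change ran from -1.66 to -1.55. With equal library totals, genes apart and lower fell to 1118, and 59.9% of calls were higher, against 49.3% in the fit reported. With a minimum mean of 50, fewer genes were tested, and 1435 were called with at least a 2-fold change. edgeR called 8969 genes and DESeq2 8915. Of 28 lists, the glycolysis and hypoxia list changed its leading direction with equal totals (6 members left in the direction reported), no minimum mean (8), quantile normalization (8) and without WT replicate 1 (6), and the mesenchymal list without KO 2 replicate 2 (5). The cause was not tested. Of 137 named genes besides TIMP1, 10 lost their call under some alternative and none changed direction. They were ACTB, ACTG1, CANX, ESRP1, HOXB2, HOXC4, JAK1, KRT8, PDIA3 and SC5D.

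The replicate numbers did not pair the samples, since deviations of same-numbered WT and KO 2 libraries correlated at -0.13, -0.03 and -0.03. With the replicate block, 8714 genes were called (4288 higher, 4426 lower) and no call of TIMP1 or of a list's leading direction changed. Depth limits the genes near the minimum mean of 10, where a library holds few reads.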

Other observations

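The direction of the calls differed by abundance. Among genes with a mean normalised count from 10 to 100, 29.2% were called higher and 11.8% lower, whereas among those of 1000 or more 20.7% were called higher and 41.0% lower. Long non-coding RNA genes were called higher in 567 and lower in 194 of 2024 tested, and protein-coding genes in 3681 and 4140 of 13221. The minimum mean was taken over all 12 libraries, KO 2 included. Only through KO 2 did 312 tested genes reach it, and 210 of these were called higher. This filter adds to the rises, and how many of these genes belong to each group above was not counted.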
